A study of Homo sapiens with 4 samples.

Results

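The 52 genes described here encode integrins, laminins, collagens, other matrix proteins, and the enzymes and receptors that act on them. They were chosen by name, with no measured value in the rule but with earlier results of these data known. All 52 were found among the 40205 genes listed. They comprise 12 integrin subunits, 7 laminin chains, 9 collagen chains, 4 matrix glycoproteins, 4 genes of the plasminogen system, 5 metalloproteases, 3 tissue inhibitors of metalloproteases, 3 collagen-modifying enzymes, and 5 proteoglycans or hyaluronan receptors. RNA-seq was performed on lung cancer cells, named H1299 in the labels and A549 in the methods. They were transfected for 24 h with a negative control siRNA (NC 1 and NC 2) or with an siRNA against circZFR (si-circZFR 1 and si-circZFR 2). circZFR is a circular RNA made by back-splicing of *ZFR* exons. The comparison addresses which mRNAs differed between cells given the siRNA against circZFR and cells given the control siRNA. Cells were grown in RPMI with fetal calf serum, and total RNA was sequenced on the Ion Proton. Nothing states that the libraries of a group came from separate cultures, so each p-value measures the spread between these libraries, which may be technical. In bulk RNA, fewer cells expressing a gene and less RNA per cell cannot be told apart.

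The siRNA listed for circZFR is shown first because the groups were given different siRNAs. The capitals of the guide strand mark its seed, bases 2 to 8.
si-circZFR sense strand: ccaagcuggcccuuacguctt
si-circZFR guide strand: gACGUAAGggccagcuugg
The bases a guide with this seed pairs with, CTTACGT, were found in 4 of the 51 members with an annotated 3′UTR. Of all 11411 tested genes with an annotated 3′UTR, 320 (2.8%) held them. The 4 members were *ITGB5*, *LAMC1*, *COL12A1* and *ADAM10*. The groups overlapped for 3 of these members. Only for *ADAM10*, at 32.5 and 37.5 scaled RPKM in NC and 39.6 and 43.4 in si-circZFR, were they apart.

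Integrins are membrane receptors made of one alpha and one beta chain that bind matrix outside the cell and actin or keratin filaments inside it. Laminins and type IV collagens build the basement membrane under epithelia, collagens of other types form or decorate fibrils, and proteoglycans such as perlecan and agrin link the network. Plasmin and metalloproteases cut these proteins, and TIMPs block the metalloproteases. In lung epithelium these genes set attachment, and carcinoma cells often alter them during invasion.

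Values are RPKM, the reads of a gene corrected for its length and the library's depth, scaled between libraries, so levels can be compared between genes per length. A log2FC is the difference of si-circZFR over NC on the log2(scaled RPKM + 1) scale, which understates the change of genes near or below 1. Depth recovered from the values ran from 11040050 to 12816868 reads a library. Across all genes tested, the libraries correlated on the log2 scale with a Pearson's r of 0.977 for NC 1 with NC 2, 0.987 for the si-circZFR libraries and 0.951 to 0.977 across the groups, where NC 1 was as close to si-circZFR 1 as to NC 2. *ZFR*, the host gene, stood at 25.7 and 32.6 scaled RPKM in NC and at 5.22 and 4.60 in si-circZFR, a log2FC of -2.34 (SE 0.189, FDR = 0.0152 by limma). The mean of *ZFR* changed by -83.2%, whereas the paper, by RT-PCR, reports no detectable effect of its circZFR siRNA on *ZFR*. The values do not separate the circle from linear *ZFR*, and which of them the differences below follow was not tested. The labels name the line H1299, whereas the design text and the methods name A549. *AKR1B10*, an aldo-keto reductase abundant in A549, was at 1280 to 1710 scaled RPKM in all 4 libraries, and the line was not settled further here. The fibroblast markers *COL1A2*, *DCN* and *LUM*, the endothelial markers *KDR* and *TEK* and the leukocyte markers *PTPRC* and *CD3E* were at 0 in every library. Of the other fibroblast markers, *COL1A1* was at 0.625 to 1.88 and *THY1* at 0.780 to 2.43, and of the other leukocyte markers *CD14* was at 5.89 to 7.99 and *CD68* at 54.8 to 82.9.

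Of the 52 members, 51 were tested. *TIMP3*, which encodes a matrix-bound inhibitor, had 0 to 3 reads a library and was not. A gene passed at a false discovery rate (FDR) under 0.05 and a log2FC beyond 1 in either direction. No member passed by limma, against 0.985% of the 14823 genes tested (55 higher and 91 lower). That split was 154 higher and 91 lower on unscaled RPKM and 104 and 74 with a trend in gene length removed. By limma-voom on the recovered reads 3 members passed, *SDC4*, *COL5A2* and *COL4A3*, all higher, against 2.5% of all genes. At an unadjusted p under 0.05, 13 members were higher (25.5%) and 2 lower (3.92%), against 10.6% and 11.8% of all genes. Both si-circZFR libraries lay above both NC libraries for 26 members (51.0%), against 28.0% of all genes. Both lay below for 8 members (15.7%), against 27.8%, and the groups overlapped for 17. On deposited RPKM without scaling, compared after the data were seen, 33 members (64.7%) lay above, against 40.3% of all genes, and 3 (5.88%) below, against 17.5%.

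The median log2FC of the members was 0.23, with 36 higher and 15 lower, beside a median of 0.00 over all genes tested. With the deposited RPKM left unscaled, the all-gene median was 0.15, the member median 0.36, and the number of members higher 44. Without NC 2, no gene of the 14823 passed by limma (3021 had an unadjusted p under 0.05), and the member median was 0.18 with 34 higher. Without si-circZFR 2 it was 0.13. Between single libraries, the member median was 0.10 for si-circZFR 1 over NC 1, 0.19 for si-circZFR 2 over NC 1, 0.22 for si-circZFR 1 over NC 2 and 0.26 for si-circZFR 2 over NC 2. It was -0.08 for NC 2 over NC 1 and 0.06 for si-circZFR 2 over si-circZFR 1. The 4 cross-group medians thus shared a sign, and the smallest of them was close in size to the difference between the NC libraries.

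**Figure D1:**
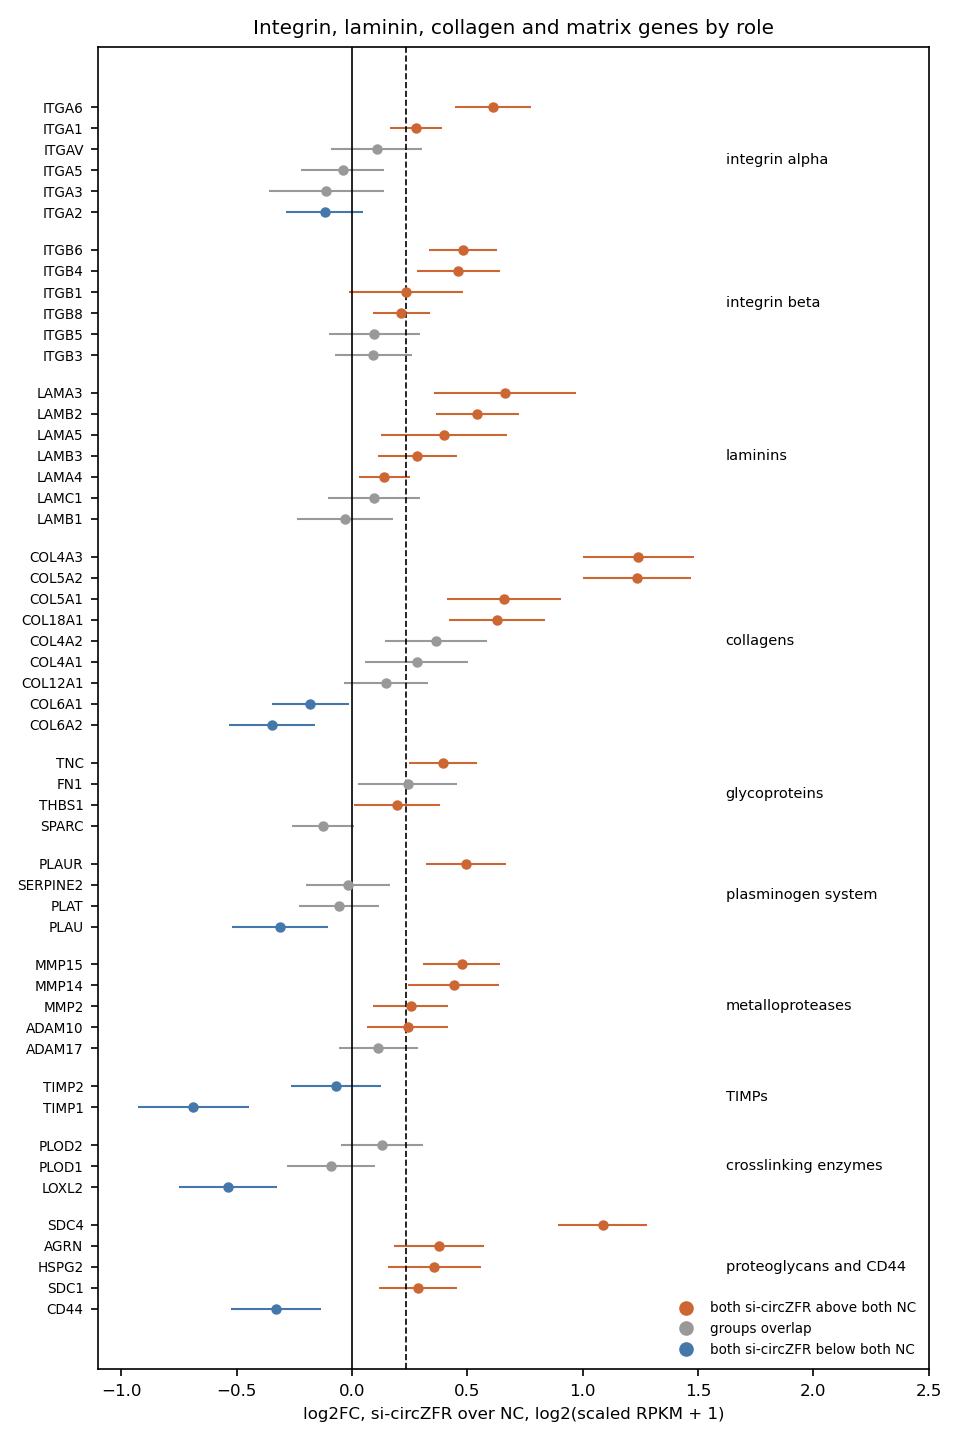
Log2FC of the 51 tested members, si-circZFR over NC (x axis, log2(scaled RPKM + 1); bars, standard error), grouped by role. Orange points mark the 26 members with both si-circZFR libraries above both NC libraries, blue the 8 below and grey the 17 that overlap; the dashed line is the member median of 0.23.

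Gene length moved with these values. The members had a median length, as recovered from the RPKM values, of 4821 bases, against 2909 for all genes tested. Across all genes tested, Spearman's rho between log2FC and length was 0.316 (a description across genes that share the same 4 libraries); it was 0.151 without NC 2 and -0.394 for NC 2 over NC 1. The 4621 genes within the members' middle range of lengths, 3581 to 7370 bases, had a median log2FC of 0.09. With the length trend removed, the member median was 0.11 and 33 members were higher. The part of length in the members' values was not tested beyond this.

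**Figure D2:**
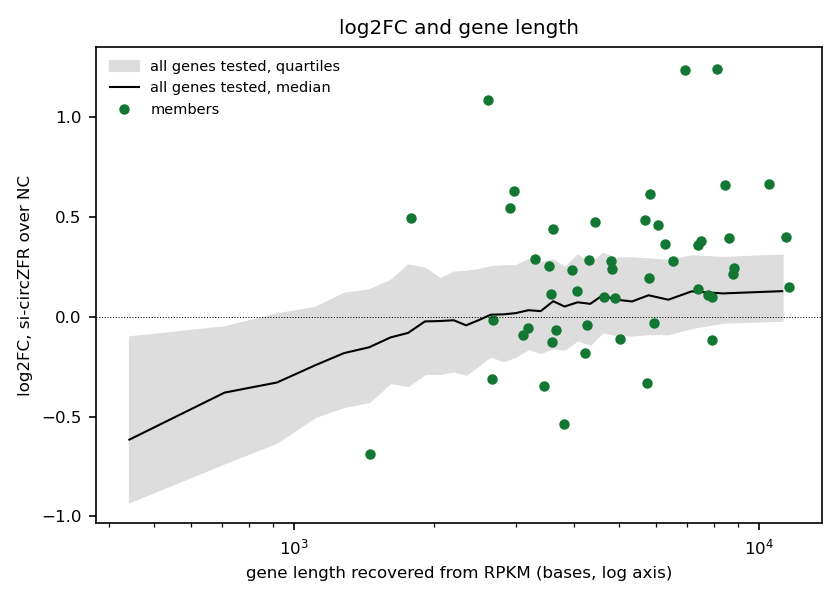
Log2FC (y axis) against gene length in bases (x axis, log scale). The line and grey band give the median and quartiles of all 14823 genes in 30 bins of equal number, and the green points are the 51 members. The line rises with length, and the members lie mostly in the longer part of the range.

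Among proteoglycans, *SDC4* had the smallest p of all members. It encodes syndecan-4, a transmembrane heparan sulfate proteoglycan that works with integrins at focal adhesions, and lies on chromosome 20 from 45325288 to 45348424 (GENCODE v44, GRCh38). Its scaled RPKM was 8.83 in NC 1, 7.90 in NC 2, 16.5 in si-circZFR 1 and 21.6 in si-circZFR 2. Both si-circZFR libraries were thus well above both NC libraries, which lay close together. The means were 8.36 ± 0.653 and 19 ± 3.57 (SD, n = 2 each), 2.27-fold apart, with a log2FC of 1.09 (SE 0.193, FDR = 0.0539 by limma). It passed by limma-voom (FDR = 0.0287) and with the length trend removed (log2FC 1.09, FDR = 0.0498 by limma). It also passed by limma on unscaled RPKM (FDR = 0.0454) and with a replicate block (FDR = 0.0357). By limma it did not pass with no filter (FDR = 0.242), an RPKM filter (FDR = 0.0817), a pseudocount of 0.1 or no variance trend (FDR = 0.0596 each). Its log2FC was 1.02 without NC 2, 1.27 without si-circZFR 1 and 0.90 without si-circZFR 2.

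*SDC1*, the epithelial syndecan, was at 39.7 and 43.2 in NC and 49.5 and 52.1 in si-circZFR. Perlecan (*HSPG2*), a basement membrane proteoglycan, was at 41.4 and 30.2 in NC and 45.7 and 45.5 in si-circZFR, and agrin (*AGRN*), another, at 34.3 and 29.1 and then 36.8 and 46.5. For each of these 3 genes the groups were apart, with the gap no wider than the spread within one of the groups for perlecan and agrin. Of the exon bases of *HSPG2*, 11.6% also lie in exons of *LDLRAD2* on the opposite strand. *CD44*, the hyaluronan receptor, went the other way, with 81.7 and 92.8 in NC and 76.1 and 62.7 in si-circZFR, a log2FC of -0.33 (SE 0.196, FDR = 0.36 by limma) that was -0.19 without si-circZFR 2. Over the 5 genes of this group the median log2FC was 0.36, with 4 higher and 1 lower.

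**Figure D3:**
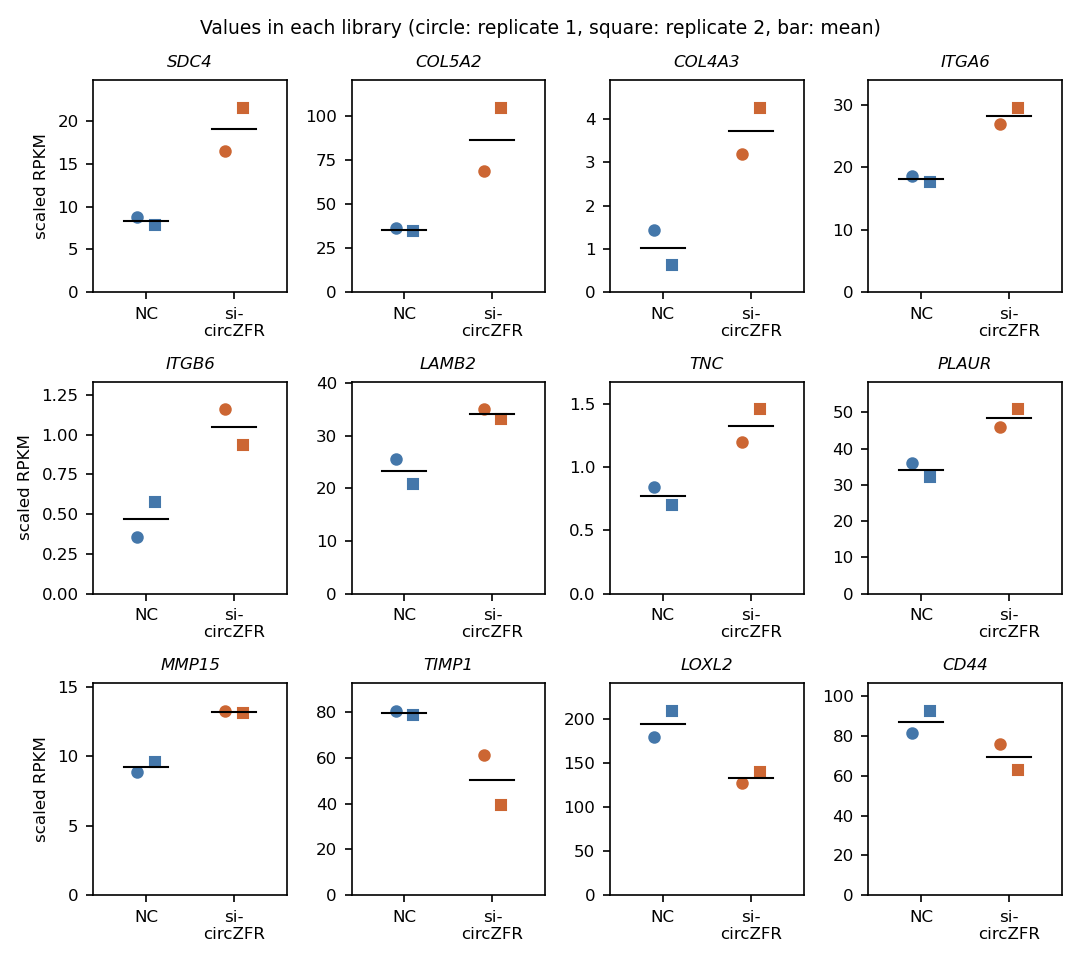
Scaled RPKM (y axes from 0, 1 scale a gene) of 12 members in NC (blue) and si-circZFR (orange); circles are replicate 1, squares replicate 2, and bars the mean of 2 libraries. The first 9 genes have both si-circZFR libraries above both NC libraries, and *TIMP1*, *LOXL2* and *CD44* have both below.

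The 2 largest differences among the members on the log2(scaled RPKM + 1) scale were of collagens, whereas by the ratio of means *ITGA1*, on 2 to 19 reads, came first at 4.65-fold. *COL5A2*, a chain of the fibril-forming type V collagen (chromosome 2, 189031898 to 189225312), was at 36.4 in NC 1, 34.7 in NC 2, 68.7 in si-circZFR 1 and 105 in si-circZFR 2. The NC libraries nearly coincided, while the si-circZFR libraries were both higher and differed from each other. The means were 35.5 ± 1.25 and 86.8 ± 25.6 (SD, n = 2 each), 2.44-fold apart (log2FC 1.23, SE 0.234, FDR = 0.0596 by limma). It passed by limma-voom (FDR = 0.0307) and its log2FC without NC 2 was 1.20 (FDR = 0.123 by limma). *COL5A1*, the partner chain of the same trimer, was at 9.45 and 5.54 in NC and 12.3 and 11.8 in si-circZFR, a log2FC of 0.66 (FDR = 0.184 by limma) that was 0.32 without NC 2. The lower NC 2 value thus carried much of the difference for *COL5A1* and little of it for *COL5A2*.

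*COL4A3*, a type IV collagen chain of lung and kidney basement membranes (chromosome 2, 227164624 to 227314792), was at 1.43 in NC 1, 0.621 in NC 2, 3.19 in si-circZFR 1 and 4.27 in si-circZFR 2. Every si-circZFR value was more than double every NC value. These rest on 57 reads in NC 2 and 425 in si-circZFR 2, and the means were 1.03 ± 0.571 and 3.73 ± 0.763 (SD, n = 2 each), 3.63-fold apart. Its log2FC was 1.24 (SE 0.241, FDR = 0.0619 by limma), and by limma-voom, which adds less to low values, it was 1.96 (FDR = 0.0287). Of the exon bases of *COL4A3*, 10.4% also lie in exons of *MFF-DT* on the opposite strand, and whether counting used strand is not given in the sources used here.

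The 6 type IV collagen genes lie in 3 pairs that start back to back and run apart on opposite strands. In each pair the RefSeq starts are close, with 127 bases between *COL4A1* and *COL4A2* on chromosome 13, 419 between *COL4A3* and *COL4A4* on chromosome 2 and 380 between *COL4A5* and *COL4A6* on chromosome X. The partners outside the 52 genes, *COL4A4*, *COL4A5* and *COL4A6*, are given to complete the pairs. *COL4A4* was at 2.36 (NC 1), 1.6 (NC 2), 4.81 (si-circZFR 1) and 6.11 (si-circZFR 2) scaled RPKM, a log2FC of 1.12 (SE 0.212, FDR = 0.0596 by limma) that passed by limma-voom (FDR = 0.023). Like *COL4A3*, it had both si-circZFR values more than double the higher NC value.

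The broadly expressed pair stood much higher and differed less. *COL4A1* was at 21.5 and 17.9 in NC and 19.9 and 29.2 in si-circZFR, and *COL4A2* at 53.5 and 43.2 and then 53.2 and 72.5. In both, the groups overlapped, and only si-circZFR 2 was above all NC values (log2FC 0.28 and 0.36, FDR = 0.494 and 0.368 by limma), with log2FC values of 0.02 and 0.15 without it. *COL4A5* was at 11.8 and 6.61 in NC and 11.5 and 16.9 in si-circZFR, and *COL4A6* at 6.16 and 3.43 and then 6.29 and 8.86. Their log2FC values, 0.60 and 0.59 (FDR = 0.274 and 0.266 by limma), were 0.23 and 0.24 without NC 2. In all 6 genes NC 2 was the lowest library and si-circZFR 2 the highest. All 6 genes were higher in si-circZFR on average, and their median log2FC, 0.60, was 0.24 without NC 2.

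**Figure D4:**
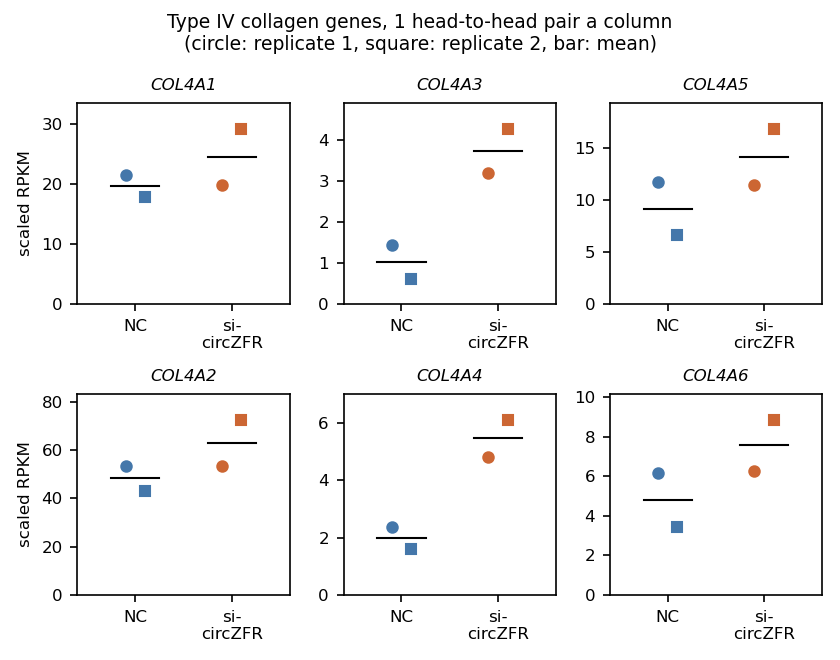
Scaled RPKM (y axes from 0) of the 6 type IV collagen genes in NC (blue) and si-circZFR (orange), with each head-to-head pair in 1 column; circles are replicate 1, squares replicate 2 and bars the mean of 2 libraries. The groups are apart for *COL4A3*, *COL4A4* and *COL4A6* and overlap for the other 3 genes.

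The promoter windows of the *COL4A3* and *COL4A4* pair and of *SDC4* are shown because the pair shares a start region and *SDC4* had the smallest p of the members. Each window of 300 bases lies mostly upstream of the gene's start and ends inside its first bases (RefSeq, GRCh38.p14). Capitals mark the GC box GGGCGG, or CCGCCC on the other strand, and no other searched motif was in them. The windows are chr2:227164374-227164673 (plus strand) for *COL4A3*, chr2:227164156-227164455 (minus strand) for *COL4A4* and chr20:45348375-45348674 (minus strand) for *SDC4*.
COL4A3: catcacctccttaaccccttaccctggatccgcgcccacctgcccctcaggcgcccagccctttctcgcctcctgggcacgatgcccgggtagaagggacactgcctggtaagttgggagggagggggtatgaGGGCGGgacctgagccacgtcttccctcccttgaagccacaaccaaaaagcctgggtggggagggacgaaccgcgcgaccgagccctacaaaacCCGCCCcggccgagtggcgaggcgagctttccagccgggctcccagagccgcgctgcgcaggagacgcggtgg
COL4A4: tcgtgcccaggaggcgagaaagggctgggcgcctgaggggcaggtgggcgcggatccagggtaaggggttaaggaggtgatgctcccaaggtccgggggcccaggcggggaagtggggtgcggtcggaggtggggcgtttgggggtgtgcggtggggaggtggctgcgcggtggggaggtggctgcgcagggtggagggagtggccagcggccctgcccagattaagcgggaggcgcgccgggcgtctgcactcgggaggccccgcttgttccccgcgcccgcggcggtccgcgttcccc
SDC4: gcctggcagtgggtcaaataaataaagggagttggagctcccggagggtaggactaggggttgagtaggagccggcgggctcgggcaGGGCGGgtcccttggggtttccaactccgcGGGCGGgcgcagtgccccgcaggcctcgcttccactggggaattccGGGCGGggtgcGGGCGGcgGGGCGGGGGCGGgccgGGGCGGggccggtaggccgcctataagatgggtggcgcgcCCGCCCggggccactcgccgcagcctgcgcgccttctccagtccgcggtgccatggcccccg
The first 2 windows share 82 bases, read on opposite strands. The *SDC4* window held 8 GC boxes, the *COL4A3* window 2 and the *COL4A4* window 0. A whole window was found for 42 of the 52 members, and 35 of these (83.3%) held a GC box, against 44.6% of 27305 windows of the same length and 70.7% of the 9576 that belong to tested genes. The CCAAT box (CCAAT, either strand) was in 11 member windows (26.2%, against 36.7% of tested genes), and the AP-1 site TGACTCA (either strand) in 3, those of *ITGA5*, *LAMA3* and *PLAUR* (7.14%, against 3.09%). The TATA box TATAAA (either strand) was in 2, those of *ITGA6* and *COL6A2* (4.76%, against 5.19%). These are matches of letters, and no binding was measured.

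Among the other collagens, *COL18A1*, whose product sits in basement membranes and yields endostatin, was at 37.6 and 32.1 in NC and 46.6 and 63.1 in si-circZFR (log2FC 0.63, FDR = 0.152 by limma, and 0.41 without si-circZFR 2). The groups did not overlap, though 28.9% of its exon bases also lie in exons of *SLC19A1* on the opposite strand. *COL12A1*, a fibril-associated collagen, was at 1.39 and 0.793 and then 1.26 and 1.32, with the groups overlapping. Both type VI chains were lower. *COL6A1* was at 10.5 and 10.7 in NC and 9.49 and 8.94 in si-circZFR, and *COL6A2* at 10.1 and 8.07 and then 6.68 and 7.15. On deposited RPKM the groups overlapped for both chains of type VI collagen, which forms beaded filaments near cells. So 7 of 9 collagen members were higher, and their median log2FC of 0.36 was 0.21 without NC 2, 0.58 without si-circZFR 1 and 0.15 without si-circZFR 2, while the 2 lower ones were the chains of one trimer family.

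The integrin chains did not move together. At the top of the alpha chains, *ITGA3*, a laminin receptor chain, was at 330 and 272 in NC and 289 and 266 in si-circZFR. Below it came the fibronectin receptor chain *ITGA5* (54.8 to 62.9) and the vitronectin receptor chain *ITGAV* (45.7 to 59.8), with neighbours that their own spread does not separate. The groups overlapped for all 3. *ITGA2*, a collagen receptor chain, was at 13.5 and 12.7 in NC and 11.3 and 12.7 in si-circZFR, close together despite not overlapping.

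*ITGA6*, the laminin receptor chain of epithelia, was at 18.7 and 17.6 in NC and 27.0 and 29.6 in si-circZFR. The gap between the groups was wider than the spread inside either. The means were 18.2 ± 0.763 and 28.3 ± 1.90 (SD, n = 2 each), 1.56-fold apart, a log2FC of 0.61 (SE 0.164, FDR = 0.106 by limma). *ITGA1*, another collagen receptor chain, rested on 5 and 2 reads in NC and 19 and 14 in si-circZFR (log2FC 0.28, FDR = 0.21 by limma). The median log2FC of the 6 alpha chains was 0.03, with 3 higher and 3 lower, whereas all 6 were higher with the RPKM left unscaled.

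All 6 beta chains were higher on average, with a median log2FC of 0.22 that was 0.13 with the length trend removed. *ITGB1*, the common partner of many alpha chains, was the most abundant at 246 and 287 in NC and 292 and 335 in si-circZFR. The si-circZFR values began just above the higher NC value. *ITGB4*, which pairs with *ITGA6* in hemidesmosomes, was at 80.1 and 80.3 in NC and 112 and 109 in si-circZFR (log2FC 0.46, SE 0.181, FDR = 0.199 by limma). Its libraries of each group almost coincided, at 80.2 ± 0.115 and 111 ± 1.96 (SD, n = 2 each). *ITGB5*, a vitronectin receptor chain, ranged from 59.6 to 76.2 with the groups overlapping.

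The other 3 beta chains were near or under 1 scaled RPKM. *ITGB6*, an epithelial chain whose receptor activates TGF-beta, was at 0.358 and 0.577 in NC and 1.16 and 0.933 in si-circZFR. Its log2FC was 0.48 (SE 0.148, FDR = 0.131 by limma), and the ratio of its mean scaled RPKM values was 2.24. Of its exon bases, 20.8% are shared with another annotated gene on the same strand. *ITGB8*, which also acts in TGF-beta activation, was at 0.279 and 0.131 and then 0.365 and 0.426. *ITGB3*, the vitronectin receptor chain also known from platelets, overlapped, at 0.932 and 0.469 and then 0.832 and 0.764, with NC 2 the lowest. Of its exon bases, 38.1% are shared with another annotated gene on the same strand.

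Of the laminin chains, *LAMB2* had the smallest p, at 25.7 and 20.8 in NC and 35.1 and 33.3 in si-circZFR. It encodes a beta chain of several basement membrane laminins. Its means were 23.3 ± 3.48 and 34.2 ± 1.27 (SD, n = 2 each), a log2FC of 0.54 (SE 0.179, FDR = 0.15 by limma) that was 0.40 without NC 2. *LAMA3*, the alpha chain of the laminin that anchors epithelia, was at 13.8 in NC 1, 6.58 in NC 2, 16.6 in si-circZFR 1 and 15 in si-circZFR 2, with NC 2 far below every other library. Its log2FC of 0.66 (FDR = 0.26 by limma) was 0.18 without NC 2. *LAMA5*, an alpha chain found in many adult basement membranes, was at 91.5 in NC 1, 53.1 in NC 2, 92.3 in si-circZFR 1 and 92.5 in si-circZFR 2. NC 1 lay next to both si-circZFR libraries, and NC 2 alone stood apart.

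*LAMB3*, the beta chain of the anchoring laminin, was at 41.8 and 44.8 in NC and 50.4 and 55.5 in si-circZFR (log2FC 0.28, FDR = 0.367 by limma). The chains of the widespread laminins, *LAMB1* and *LAMC1*, overlapped, from 70.4 to 94.5 and from 79.9 to 99.8, with NC 1 the highest and NC 2 the lowest in each. *LAMA4*, a chain of vessel and muscle laminins, was under 0.3 in every library. Of the 7 laminins, 6 were higher, and their median log2FC of 0.28 was 0.10 without NC 2.

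*ITGA6*, *ITGB4*, *LAMA3* and *LAMB3* belong to the hemidesmosome and its anchoring ligand, together with *PLEC*, *DST*, *COL17A1* and *COL7A1*. This set was put together after values were seen, so its counts are only a description. *COL7A1*, the collagen of anchoring fibrils, was at 37.6 and 14.8 and then 58.4 and 90.5. The groups were apart, and the gene varied widely within each.

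The log2FC of *COL7A1*, 1.58 (SE 0.421, FDR = 0.104 by limma), was 0.93 without NC 2. *PLEC*, the plakin plectin that ties the integrin to keratin filaments, was at 110 and 90.8 and then 145 and 164 (log2FC 0.62, FDR = 0.153 by limma). *DST*, which encodes several plakin forms including BP230, was at 18.9 and 9.65 in NC and 17.4 and 16.9 in si-circZFR. These values do not separate the forms. The log2FC of *DST*, 0.32 (FDR = 0.552 by limma), turned to -0.13 without NC 2. *COL17A1*, a transmembrane collagen, was at 0.678 and 0.378 in NC and then 0.633 and 1 (log2FC 0.25, FDR = 0.415 by limma). All 8 genes of the set were higher, 6 with the groups apart, and none passed by either tool. By limma, 4 had an unadjusted p under 0.05. Of all genes tested, 28.0% had both si-circZFR libraries above both NC libraries, and 10.6% were higher at an unadjusted p under 0.05. As the genes were picked after values were seen, the set's counts cannot be weighed against these shares. The median log2FC of the set, 0.54, was 0.40 without NC 2 and 0.41 with the length trend removed.

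**Figure D5:**
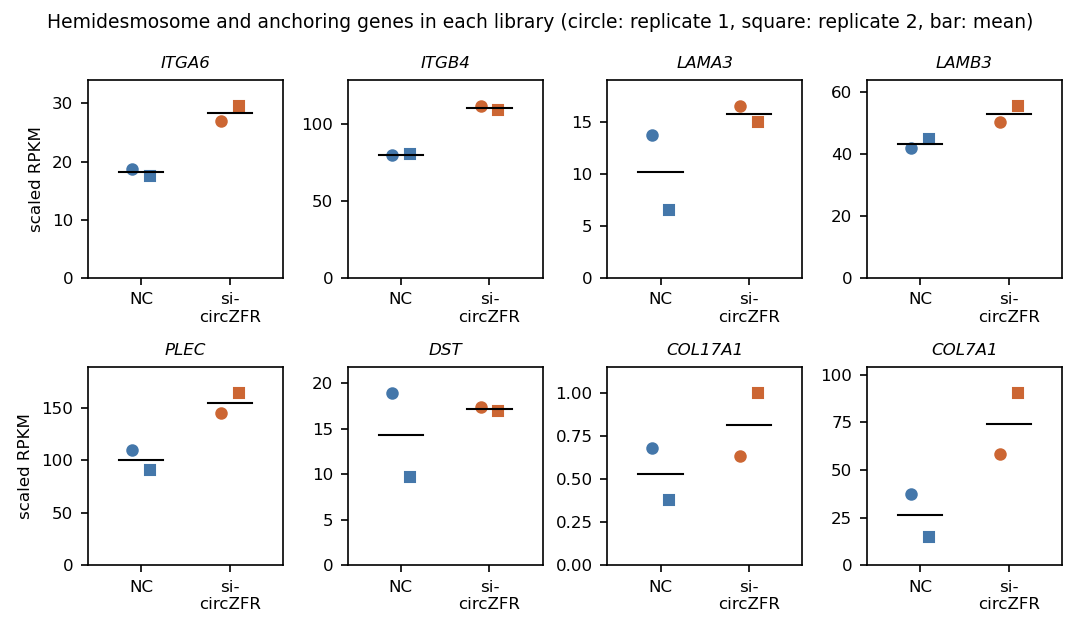
Scaled RPKM (y axes from 0) of the 8 hemidesmosome and anchoring genes in NC (blue) and si-circZFR (orange); circles are replicate 1, squares replicate 2 and bars the mean of 2 libraries. The groups are apart for 6 genes and overlap for *DST* and *COL17A1*, and NC 2 is the lowest library of *LAMA3*, *DST* and *COL7A1* by a wide margin.

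Among the markers checked, *EPCAM*, an epithelial adhesion gene, was at 0.393 and 0.411 scaled RPKM in NC and 1.81 and 2.65 in si-circZFR (log2FC 1.19, FDR = 0.0472 by limma, FDR = 0.0713 by limma-voom). It rested on 4, 4, 18 and 28 reads. *CDH1*, which encodes E-cadherin, was at 11.3 and 8.71 and then 21.5 and 21.2 (log2FC 1.03, FDR = 0.0539 by limma, FDR = 0.028 by limma-voom). Of the mesenchymal markers, *VIM* was at 560 and 680 and then 553 and 525, and *ZEB1* at 3.37 and 2.99 and then 2.63 and 2.26. Neither *VIM* (FDR = 0.734 by limma) nor *ZEB1* (FDR = 0.381 by limma) passed. On deposited RPKM the groups overlapped for both, at 555 to 601 for *VIM* and 2.51 to 3.34 for *ZEB1*. *CDH2* overlapped at 7.25 to 7.58. The part of these marker differences in the values above was not tested.

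Of the matrix glycoproteins, *TNC*, which encodes the anti-adhesive tenascin-C, was at 0.845 and 0.698 in NC and 1.20 and 1.46 in si-circZFR. The groups were apart on 68 to 155 reads (log2FC 0.39, SE 0.149, FDR = 0.187 by limma). Fibronectin (*FN1*) overlapped, at 108 and 93.9 and then 134 and 106, as did *SPARC*, a collagen-binding matricellular gene, at 0.407 to 0.688. *THBS1*, which encodes thrombospondin-1, was at 3.78 and 4.62 and then 4.67 and 5.22, with one NC value next to one si-circZFR value.

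In the plasminogen system, *PLAUR*, the urokinase receptor, was at 36.0 and 32.2 in NC and 46.0 and 50.9 in si-circZFR. The means were 34.1 ± 2.65 and 48.5 ± 3.52 (SD, n = 2 each), a log2FC of 0.49 (SE 0.172, FDR = 0.163 by limma). *PLAU*, urokinase itself, was among the most abundant members at 210 and 200 and then 164 and 166, a log2FC of -0.31 (FDR = 0.413 by limma). Of the exon bases of *PLAU*, 18.3% also lie in exons of *C10orf55* on the opposite strand. On deposited RPKM the *PLAU* groups overlapped, at 208 and 177 and then 168 and 185, and its log2FC was -0.12. Neither gene passed. The inhibitor *SERPINE2* (26.2 to 32.2) and tissue plasminogen activator, *PLAT* (2.34 to 2.82), overlapped.

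All 5 metalloproteases were higher on average, with a median log2FC of 0.26. *MMP15*, a membrane-type matrix metalloprotease, was at 8.85 and 9.58 in NC and 13.3 and 13.1 in si-circZFR (log2FC 0.47, SE 0.165, FDR = 0.162 by limma). Its groups were tight and apart, at 9.22 ± 0.518 and 13.2 ± 0.110 (SD, n = 2 each). *MMP14*, the membrane-type protease that activates MMP2, was at 0.846 and 0.295 and then 0.963 and 1.24, and *MMP2*, a gelatinase, at 1.53 and 1.78 and then 2.26 and 2.07. Of the sheddases, *ADAM10* was apart and *ADAM17* overlapped, at 29.5 and 32.6 in NC and 31.9 and 35.5 in si-circZFR. Of the exon bases of *ADAM17*, 30.1% also lie in exons of *IAH1* on the opposite strand.

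Of the inhibitors, *TIMP1* was at 80.7 and 78.7 in NC and 61.2 and 39.3 in si-circZFR, and it had the lowest log2FC of the members, -0.69 (SE 0.24, FDR = 0.163 by limma), which was -0.37 without si-circZFR 2. Its NC libraries were close together while its si-circZFR libraries differed widely, both below them. It is also the shortest member at 1455 bases, and with the length trend removed it was at -0.54 and *LOXL2*, at -0.60, was the lowest. *TIMP2* was at 142 and 137 and then 137 and 130, barely apart, and on deposited RPKM its groups overlapped at 122 to 144.

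Among the collagen-modifying enzymes, *LOXL2*, a lysyl oxidase that cross-links collagen, was at 179 and 209 in NC and 127 and 139 in si-circZFR. The si-circZFR values were both under the lower NC value, with means of 194 ± 20.7 and 133 ± 8.29 (SD, n = 2 each) and a log2FC of -0.54 (SE 0.212, FDR = 0.2 by limma). *TIMP1* and *LOXL2* were the 2 lower members with an unadjusted p under 0.05. The lysyl hydroxylases *PLOD1* (37.6 to 47.8) and *PLOD2* (53.3 to 64.7) overlapped.

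A further 121 genes of cell adhesion and matrix were read from the same fit, of which 85 were tested. Of these, 56 were higher and 29 lower, with a median log2FC of 0.11, and 2 passed, both higher. *MMP24*, another membrane-type matrix metalloprotease, was at 10.9 and 12.9 scaled RPKM in NC and 33.2 and 33.3 in si-circZFR. It rose by a log2FC of 1.41 (SE 0.17, FDR = 0.0353 by limma). *PTK2B*, a kinase related to focal adhesion kinase, was at 7.55 and 6.47 and then 17.6 and 16.6, and rose by 1.18 (SE 0.172, FDR = 0.0472 by limma). Both had si-circZFR libraries that nearly coincided, more than double any NC value, and neither passed without NC 2 (FDR = 0.09 and 0.0903 by limma).

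By list, 3 of 9 other integrins tested were lower and 6 higher, the smallest p being that of *ITGAL*, a leukocyte chain at 0.322 to 0.997 (log2FC 0.43, FDR = 0.147 by limma). Of the 4 other laminins and nidogens 3 were higher, and all 8 other collagens were, with a median log2FC of 0.58 that was 0.29 without NC 2. Of 18 other matrix enzymes 11 were higher, of 35 focal adhesion proteins 21, and of 11 other proteoglycans and receptors 7. *DDR1*, a collagen-binding tyrosine kinase, had the smallest p of the last list at 24.4 and 25.6 in NC and 35.3 and 32.7 in si-circZFR (log2FC 0.43, FDR = 0.189 by limma). Apart from *MMP24*, *PTK2B* and, by limma-voom, *COL4A4*, none of these genes passed.

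One further sequence was looked up because an earlier reading of these values had found it in 3′UTRs of lower genes. The 7-mer CTGACTC was in the 3′UTRs of 6 of the 51 members with a 3′UTR (11.8%), against 11.7% of 11411 tested genes. The longer CTGACTCA was in 2 of them, *COL4A1* and *PLAU* (3.92%, against 3.79%). The sites of these 2 genes and of *COL5A2* are shown with the match in capitals (GENCODE v44, GRCh38). The 7-mers lie at chr13:110150350-110150356 (minus strand), chr10:73916787-73916793 (plus strand) and chr2:189033102-189033108 (minus strand).
COL4A1: tgaagcCTGACTCAgctaatgtc
PLAU: aggggtggtcCTGACTCAacatgttac
COL5A2: agttgtggagCTGACTCtaatcaaatg
These 3 members had log2FC values of 0.28, -0.31 and 1.23, and the members' shares were near those of all genes.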

How the data were processed

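RNA-seq values for 4 libraries (2 NC, 2 si-circZFR, grouped by their labels) were taken from the authors' deposited RPKM values. The authors sequenced on the Ion Proton and state batch removal by SVA and edgeR for their own test; the aligner is not given in the sources used here, and the build is hg38 in the methods and GRCh37 in the submitters' processing notes.  Whole reads were recovered from the deposited RPKM by finding each gene's length (24282 of 24289 genes above 0, 99.97%, tolerance 0.0003), and small RNA genes of known length checked it (94.9% to 96.6% whole). Whole reads cannot tell a length from its divisor, so some recovered lengths and reads may be too low. Recovered lengths and GENCODE v44 exon bases were 7365 and 14341 for *HSPG2*, 2904 and 5692 for *LAMB2*, and 2968 and 5408 for *COL18A1*. Values were divided by unweighted trimmed-mean factors (0.884 to 1.11). Genes above 1 CPM of recovered reads in at least 2 libraries were tested (14823 of 40205) with limma 3.58.1 (R 4.3.3) on log2(scaled RPKM + 1), a trended prior variance and two-sided Benjamini-Hochberg FDR. limma-voom on recovered reads was an alternative and called 370 genes. The script was tested on simulated data.

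The members, lists, filter and tests were chosen with earlier results of these data known. Values in every library are given for members passing either tool, for the member with the smallest p in each role, and for up to 3 passing genes of each other list or its gene with the smallest p. Members with an unadjusted p under 0.05, the type IV collagens, the hemidesmosome set and single other members were added after values were seen. Alternatives were no scaling, no filter, an RPKM filter, a pseudocount of 0.1, no variance trend, removal of the length trend, a replicate block, limma-voom, and leaving out each library, with the count of members apart on unscaled RPKM added after the data were seen. Sequences came from RefSeq GRCh38.p14 and GENCODE v44 through Python 3.11.15, and exon overlaps from GENCODE v44. Results for some genes under these rules are not reported here.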

Additional observations from a re-analysis of the deposited data

How the results depend on the processing

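Against 146 genes passing by limma, 245 passed on unscaled RPKM (154 higher and 91 lower, against 55 and 91), 0 with no filter (3632 at an unadjusted p under 0.05), 8 with the RPKM filter, 58 with a pseudocount of 0.1, 27 without the variance trend, 370 by limma-voom and 0 to 1031 with 1 library left out. It was 0 without NC 2, 1031 without NC 1, 231 without si-circZFR 1 and 38 without si-circZFR 2. Of the members, against 0, 2 passed on unscaled RPKM, 1 with the length trend removed, 3 by limma-voom and 0 to 4 with 1 library left out (4 without NC 1, which added *LAMA3*). Of the other adhesion and matrix genes, against 2, 0 passed with no filter, with the RPKM filter or without the variance trend, 1 with a pseudocount of 0.1 and 0 to 7 with 1 library left out. The member median of 0.23 was 0.36 unscaled, 0.11 with the length trend removed and 0.13 to 0.26 with 1 library left out, lowest without si-circZFR 2. The medians of integrin alpha chains (0.03, and -0.06 with the length trend removed), the plasminogen system (-0.04, and 0.12 unscaled) and crosslinking enzymes (-0.09, and 0.10 unscaled) changed sign. They did so also at -0.04 for the first without NC 2 and 0.04 for each of the others without si-circZFR 2. *DST* turned from 0.32 to -0.13 without NC 2 and was up to 0.77 with another library left out, the 1 reversal among 417 values, over 12 alternatives, of the 35 genes whose log2FC is printed in the text above, of which 371 kept direction and side of the threshold. Among the other members, whose log2FC is not printed, *ITGA5*, *ITGAV*, *ITGB3*, *LAMC1*, *COL12A1* and *SERPINE2* also changed sign without NC 2. The causes were not tested.

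Replicate numbers are shared between the groups, but same-numbered libraries deviated together only weakly (r = 0.0846 over genes), so the numbers were not taken as pairs. With a replicate block, 364 genes and 3 members (*COL4A3*, *COL5A2* and *SDC4*) passed. With 2 libraries a group, depth is a limit for members under 1 scaled RPKM such as *ITGA1*, *LAMA4* and *TIMP3*.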
